A study of Mus musculus with 6 samples.

Results

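The ventral progenitor domain transcription factors are 10 genes. They are listed roughly from the ventral midline upwards as Foxa2, Nkx2-2, Nkx2-9, Olig1, Olig2, Nkx6-1, Nkx6-2, Irx3, Pax6 and Dbx1. The order is approximate, since their domains overlap and those of Irx3 and Pax6 begin nearer the midline than that of Nkx6-2. The 10 were chosen by name, and each had exactly 1 row with a single gene symbol among the 19938 genes named in the array table. The table holds lumbar spinal cord of mouse embryos at E15.5, strain SV129, from 3 wild-type samples and 3 samples with both copies of Tnc disrupted (Tnc -/-). Tnc encodes tenascin-C, a glycoprotein of the extracellular matrix made by radial glia and young astrocytes, and every embryo was otherwise untreated. The labels call the 3 samples of a group biological replicates, without saying whether embryos were pooled or shared a litter, and which part of Tnc was removed is not given in the sources used here.

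Along the ventral neural tube, Sonic hedgehog from the notochord and floor plate sets up stripes of progenitors, named floor plate, p3, pMN, p2, p1 and p0 from ventral to dorsal. Factors that the signal turns on (Nkx2-2, Nkx2-9, Olig2, Nkx6-1) and factors that it holds back (Pax6, Irx3, Dbx1) repress each other in pairs, which sharpens the borders between stripes. Each stripe first makes its own class of neurons and later glia: p3 gives V3 interneurons, pMN gives motor neurons and then oligodendrocyte precursors, and p0 gives V0 interneurons. The comparison asks whether loss of tenascin-C goes with other levels of these factors at the stage when spinal cord astrocytes are specified, the subject of the series by its title.

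Of the 10 factors 9 had a higher mean in knockout than in wild type, as did 46.4% of all genes. For 5 of them, Foxa2, Nkx2-2, Olig1, Olig2 and Irx3, the lowest knockout value lay above the highest wild-type value. Such a gap in the higher direction was seen in 3.18% of all genes, or 3.65% of those above the background guide explained below. The differences were small: the median over the 10 factors was 0.22 log2 units, against -0.00688 over all genes, and the largest, of Nkx2-2, put the knockout signal at 123% of wild type. None passed limma's test over all genes. The contrast between factors that Hedgehog signalling turns on and those it holds back changed sign when single arrays were left out. The differences of Nkx6-1, Irx3, Pax6 and Dbx1 rested largely on wild-type replicate 1, while those of Foxa2, Nkx2-2, Olig1 and Olig2 did not.

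The values are log2 expression values made by RMA, which largely evens out the distribution of signal between arrays. A difference of 1 unit is thus a doubling of signal relative to the other genes. Levels are compared between arrays for 1 gene, not between genes. Differences are knockout minus wild type, with 95% confidence intervals and p values from limma and Benjamini-Hochberg adjustment over all 19938 genes. By that test 0 genes (0%) passed an adjusted p of 0.05, every adjusted p being 1 after rounding, and 339 genes (1.7%) had an unadjusted p under 0.05, with 0.933% higher and 0.767% lower in knockout. The median within-group standard deviation was 0.12 over all genes and 0.14 over the 10 factors. With 3 arrays a group, the precision of each value is limited by that number, and p values measure the spread between these samples only.

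As a check of the labels, Tnc read 10.72, 10.22 and 10.02 in the wild-type arrays and 9.64, 9.76 and 9.47 in the knockout arrays. The difference was -0.69 (exact two-sided permutation test, p = 0.1, the smallest that 3 arrays against 3 allow), with a limma interval from -1.09 to -0.30. The knockout signal was thus 61.8% of wild type, and Tnc, like every other gene, did not pass the adjusted threshold. All 9 lumbar Hox genes, all 11 ventricular progenitor genes and all 10 neuronal genes were above a background guide of 6.13. As 14686 of all 19938 genes were too, this is only a weak check of the tissue label. The guide is the level under which 95% of 1194 receptor genes of the olfactory and vomeronasal epithelium lay. Of the genes of neighbouring tissues, 3 of 5 brain genes, 3 of 6 genes of dorsal root ganglion and Schwann cells and 4 of 10 genes of muscle and cartilage were below it. By contrast, 7 of 8 genes of the meninges, the membranes around the cord, were above it. Wild-type replicates 1 and 3 stood apart, at opposite ends of the first principal component (-18.5 and 22.8, with 49.0% of the variance), the other 4 arrays lying between. Within both groups the position rose with the replicate number, the knockout arrays lying at -8.33, -0.22 and 9.48. The labels do not say whether arrays of 1 number were handled together. Wild-type replicate 3 held the highest value of the 6 arrays for 31.1% of all genes. Wild-type replicate 1 held the lowest value for 29% of all genes. Its ventricular progenitor and cycling-cell genes lay 0.14 and 0.18 below their means over the 6 arrays, lower than in any other array. The groups also differed in the sex of the embryos: the mean of 3 Y-linked genes was 8.20 and 7.86 in knockout replicates 1 and 3 and between 4.32 and 4.48 in the other 4 arrays. The samples are bulk tissue, in which fewer cells of a type and less RNA per cell cannot be told apart.

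Promoter windows from RefSeq on build GRCm38.p6 were matched for 9 of the 10 factors, 12 windows in all. The 150 bases before the transcript start are shown for 3 factors without overlap between the groups and for Nkx2-9, the relative of Nkx2-2 whose groups overlapped, so that the related factors can be read side by side. They lie at chr2:147186403-147186552 (minus strand) for Nkx2-2, chr12:56613285-56613434 (minus strand) for Nkx2-9, chr16:91225400-91225549 (plus strand) for Olig2 and chr8:91801655-91801804 (minus strand) for Irx3, and each is written from its 5′ end towards the gene. Capitals mark motif matches on either strand. One motif is TGGGTGG, the core bound by Gli proteins, the transcription factors at the end of the Hedgehog pathway. The others are the core promoter element known as the TATA box, searched here as TATAAA, and the upstream element named for its letters, the CCAAT box.
Nkx2-2: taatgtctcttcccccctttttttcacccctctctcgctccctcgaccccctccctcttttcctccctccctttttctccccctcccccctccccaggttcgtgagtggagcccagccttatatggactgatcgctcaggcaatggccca
Nkx2-9: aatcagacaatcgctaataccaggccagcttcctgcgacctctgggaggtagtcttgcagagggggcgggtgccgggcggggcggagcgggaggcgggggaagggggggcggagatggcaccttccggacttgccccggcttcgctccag
Olig2: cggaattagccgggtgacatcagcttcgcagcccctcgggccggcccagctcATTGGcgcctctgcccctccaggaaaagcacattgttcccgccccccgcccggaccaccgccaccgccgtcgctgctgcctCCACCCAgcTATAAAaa
Irx3: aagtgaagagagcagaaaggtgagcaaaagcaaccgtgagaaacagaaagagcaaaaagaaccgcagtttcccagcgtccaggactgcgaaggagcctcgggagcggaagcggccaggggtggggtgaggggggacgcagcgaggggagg
The Gli core was found in 1 of the 12 windows, that of Olig2, and in 5.23% of all 32851 windows of this length. The TATA box was found in 2 (Olig2 and Dbx1), against 7.57% of all windows, and the CCAAT box in 4, against 24.5%. Of the 4 sequences shown, that of Nkx2-2 is 76.0% C or T and that of Irx3 is 26.0% C or T, and they share no marked motif. The median GC content was 62.4% over the 12 windows and 54.0% over all windows. These matches describe the letters of the windows, and the array data hold no measurement of binding there.

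Foxa2, the forkhead factor of the floor plate, read 7.31, 7.28 and 7.49 in wild type and 7.55, 7.67 and 7.59 in knockout. The groups did not overlap, with a gap of 0.057 between the highest wild-type and the lowest knockout array. The wild-type mean was 7.36 ± 0.12 and the knockout mean 7.60 ± 0.06 (SD, n = 3 arrays). The difference was 0.25, its interval reached from 0.05 to 0.44, and limma gave an unadjusted p of 0.0195 and an adjusted p of 1. With 1 array left out the difference ran from 0.20 to 0.31, and it was 0.22 without wild-type replicate 1.

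Nkx2-2, the homeodomain factor that defines p3 and is later found in oligodendrocyte precursors, read 7.70, 7.78 and 7.95 in wild type and 8.13, 8.18 and 8.03 in knockout. All 3 knockout arrays lay above all 3 wild-type arrays, with a gap of 0.080. The difference of 0.30 (interval 0.10 to 0.51) had an unadjusted p of 0.00948 and an adjusted p of 1 in limma. In size it exceeded the differences of 99.3% of genes. It stayed between 0.25 and 0.38 with any 1 array left out.

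Nkx2-9, a relative of Nkx2-2 whose early expression lies in the same ventral domain, read 6.82, 7.22 and 7.49 in wild type and 7.22, 7.15 and 7.30 in knockout. The knockout values lay inside the wild-type range. The difference was 0.048, with an interval from -0.31 to 0.41. Leaving out wild-type replicate 1 gave -0.13, and leaving out wild-type replicate 3 gave 0.21. The interval thus includes the difference seen for Nkx2-2. Within each array the log2 ratio of Nkx2-2 to Nkx2-9 changed by 0.26 between the groups, which overlapped (exact two-sided permutation test, p = 0.2, or 0.3 adjusted over 3 pairs of related factors). The smallest p this test allows with 3 arrays a group is 0.1, so it could not show a difference at 0.05. Whether the related factors, whose promoter windows are printed above, differ in response was not settled.

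Olig2, the basic helix-loop-helix factor that defines pMN, read 9.26, 9.36 and 9.07 in wild type and 9.39, 9.50 and 9.53 in knockout. The groups did not overlap, although the gap was only 0.022. The group means were 9.23 ± 0.15 for wild type and 9.47 ± 0.08 for knockout (SD, n = 3 arrays). Their difference was 0.24, with an interval from 0.02 to 0.46 and, in limma, an unadjusted p of 0.0341 and an adjusted p of 1. Leaving out wild-type replicate 3, the lowest array, brought it to 0.16, and leaving out wild-type replicate 1 to 0.26.

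Olig1, the partner of Olig2 in the oligodendrocyte lineage, read 8.81, 8.78 and 8.73 in wild type and 9.19, 8.83 and 8.97 in knockout. Here the wild-type arrays were close together and the knockout arrays spread, with knockout replicate 2 only 0.015 above the highest wild-type array. Wild type averaged 8.77 ± 0.04 and knockout 8.99 ± 0.18 (SD, n = 3 arrays), and the interval of the difference of 0.22 ran from -0.00934 to 0.45. It fell to 0.12 without knockout replicate 1, and to 0.052 with a sex term. That term leaves 1 knockout array, replicate 2, to be set against wild type. The same term left Foxa2, Nkx2-2 and Olig2 at 0.31, 0.37 and 0.27, and Tnc at -0.56. Knockout replicate 2, without Y-linked signal like the wild-type arrays, was the highest array of all 6 for 3 of the 10 factors (Foxa2, Nkx2-2 and Irx3). It was the lowest knockout array for Nkx2-9 and Olig1. How far sex enters these differences was not settled.

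**Figure D1:**
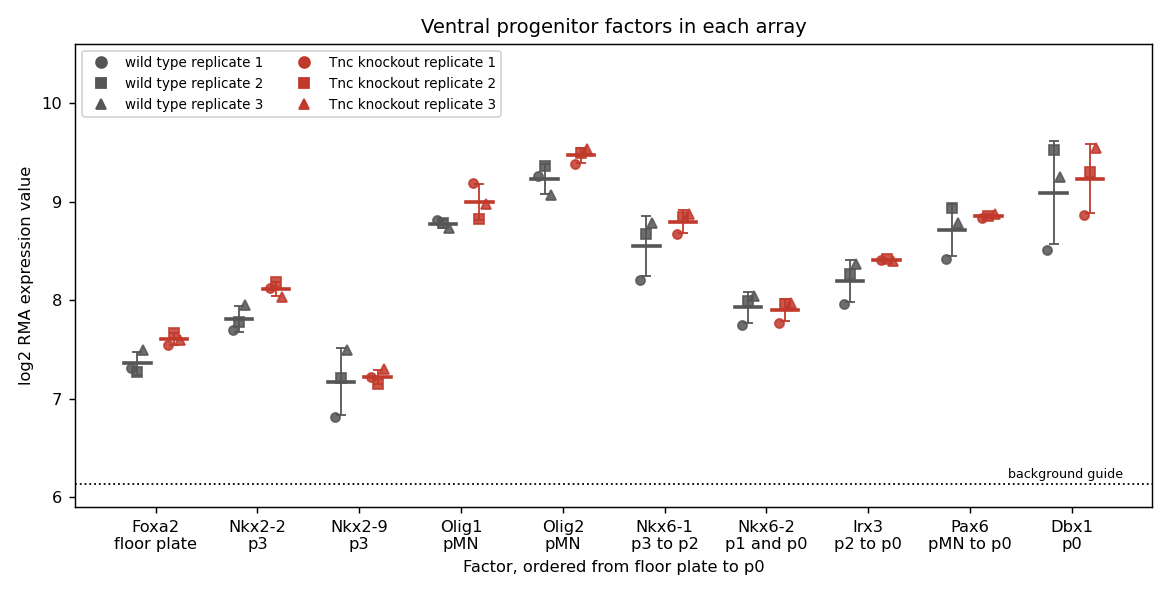
Log2 RMA values of the 10 factors in each of the 6 arrays, ordered from floor plate to p0; grey points are wild type, red points Tnc knockout, the marker shape gives the replicate number, and bars show the group mean and SD (n = 3). Foxa2, Nkx2-2, Olig1, Olig2 and Irx3 have no overlap between the groups, and the lowest point of 7 factors is wild-type replicate 1; the dotted line is the background guide of 6.13.

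Nkx6-1, a homeodomain factor shared by p3, pMN and p2 that is needed for motor neurons, read 8.20, 8.67 and 8.78 in wild type and 8.67, 8.85 and 8.88 in knockout. Only wild-type replicate 1 lay below all knockout arrays. Its difference was 0.25 (interval -0.10 to 0.59) and shrank to 0.071 without wild-type replicate 1. Nkx6-2, its relative in the p1 and p0 progenitors, read 7.75, 8.00 and 8.04 in wild type and 7.77, 7.96 and 7.97 in knockout. This was the 1 factor with a lower mean in knockout, by -0.027, with an interval from -0.26 to 0.21. Its sign turned when wild-type replicate 2, wild-type replicate 3 or knockout replicate 1 was left out. The log2 ratio of Nkx6-1 to Nkx6-2 was higher by 0.27 in knockout, without overlap between the groups (exact two-sided permutation test, p = 0.1, or 0.3 adjusted over 3 pairs). Its deviations from the mean were -0.31, -0.082 and -0.021 in the wild-type arrays and 0.14, 0.12 and 0.15 in the knockout arrays. For Olig2 against Olig1 the change in the ratio was 0.021 (exact permutation p = 1).

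Among the factors that Hedgehog signalling holds back, Irx3, an Iroquois factor whose ventral border lies between pMN and p2, read 7.96, 8.27 and 8.37 in wild type and 8.41, 8.42 and 8.40 in knockout. The knockout arrays were nearly equal, with an SD of 0.011, and all lay above wild type by at least 0.036. The difference was 0.21 (interval -0.035 to 0.46), and leaving out wild-type replicate 1 brought it to 0.095. Pax6, a paired-box factor graded from pMN to the dorsal progenitors, read 8.42, 8.94 and 8.79 in wild type and 8.83, 8.86 and 8.88 in knockout. Its knockout arrays fell inside the wild-type range, and the difference of 0.14 (interval -0.15 to 0.43) became -0.00619 without wild-type replicate 1. Dbx1, the homeodomain factor of p0, read 8.51, 9.52 and 9.25 in wild type and 8.86, 9.30 and 9.54 in knockout. It was the most variable of the 10, with a range of 1.04 over the 6 arrays, overlapping groups and a difference of 0.14 with an interval from -0.47 to 0.75. Without wild-type replicate 1 that difference was -0.15, and without knockout replicate 3 it was -0.013.

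By count, 3 of the 10 factors (Foxa2, Nkx2-2 and Olig2) had an unadjusted p under 0.05, where 1.7% of all genes did, and 6 differed by 0.2 log2 units or more in the higher direction, where 1.6% of all genes did. No factor was lower by that much. The factors were named with earlier results of these data known, and several are regulated together, so these counts are a description and carry no test.

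**Figure D2:**
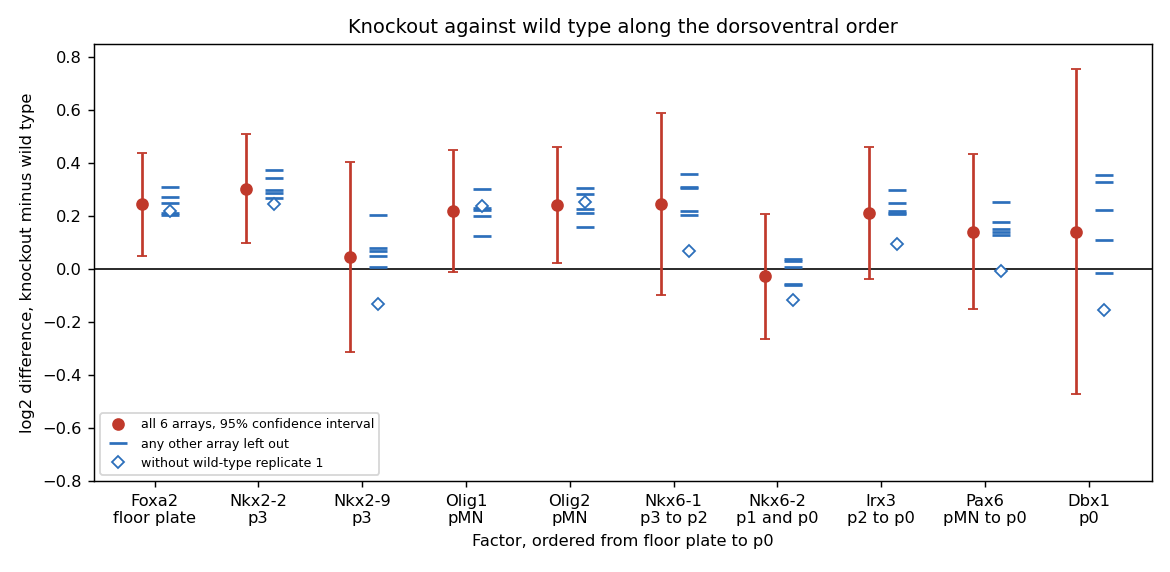
Log2 difference of each factor, knockout minus wild type, in the order from floor plate to p0; red points are the values over all 6 arrays with 95% confidence intervals from limma, and blue marks are the values with 1 array left out. Without wild-type replicate 1 (open diamonds) Foxa2, Nkx2-2, Olig1 and Olig2 stay between 0.22 and 0.26, Nkx6-1 and Irx3 are at 0.071 and 0.095, and the other 4 are below 0.

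Read as a dorsoventral profile, the 6 factors that Hedgehog signalling turns on (Foxa2, Nkx2-2, Nkx2-9, Olig1, Olig2 and Nkx6-1) were higher by 0.22 on average and the 3 that it holds back (Irx3, Pax6 and Dbx1) by 0.17. Per array, the mean deviation of the first set from the gene means was -0.24, -0.078 and -0.0060 in wild type and 0.096, 0.10 and 0.13 in knockout. All 3 knockout arrays lay above all wild-type arrays. For the second set it was -0.46, 0.16 and 0.050 in wild type and -0.050, 0.11 and 0.19 in knockout, and these overlapped. The first set minus the second averaged -0.026 ± 0.23 over the wild-type arrays and 0.026 ± 0.11 over the knockout arrays (SD, n = 3). This difference of 0.052 is smaller than the spread of either group. Leaving out wild-type replicate 1 gave 0.17, wild-type replicate 2 gave -0.053 and knockout replicate 1 gave -0.00799. Nkx6-2 is in neither set, and with it added to the first the difference was 0.017. Weighting the arrays by their estimated quality gave 0.22. The size and the sign of a tilt along the profile were thus not settled by these arrays. In bulk tissue the profile compares levels and does not place cells along the axis.

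The spread within the groups was uneven. Wild-type replicate 1 was the lowest of the 6 arrays for 7 of the 10 factors, against 29% of all genes, and no knockout array was the lowest for any of them. The wild-type SD exceeded the knockout SD for 9 of the 10, Olig1 being the exception, and for 67.8% of all genes. Without wild-type replicate 1, 6 of the 10 factors were higher in knockout and their median difference was 0.083. Without any 1 of the other 5 arrays, between 8 and 10 were higher and the median lay between 0.21 and 0.25.

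Genes listed for dorsal progenitors, on the other side of the same ventricular zone, were read within each array for comparison. The list, called dorsal factors here, includes the secreted proteins Gdf7, Wnt1 and Wnt3a. Not every gene on it is exclusive to dorsal cells. Of 16 measured, 13 had a lower mean in knockout and 3 a higher one, where 46.4% of all genes had a higher one. The median was -0.076, and with 1 array left out it lay between -0.19 (wild-type replicate 1 omitted) and -0.00866 (wild-type replicate 3 omitted). The 3 were Olig3, Neurog1 and Gsx1, and without wild-type replicate 3 the count of higher factors was 8 of 16. The farthest from 0 of the 3 was Olig3, the factor of the most dorsal interneuron progenitors, which read 8.51, 8.89 and 8.88 in wild type and 9.23, 9.24 and 9.01 in knockout, a difference of 0.40 without overlap and with an unadjusted p of 0.0118 (adjusted p of 1 in limma). Neurog1 and Gsx1 differed by 0.038 and 0.056. The mean deviation of the 10 ventral factors minus that of the 16 dorsal factors was -0.10, -0.12 and -0.12 in the wild-type arrays and 0.086, 0.19 and 0.072 in the knockout arrays. On this scale wild-type replicate 1 no longer stood apart, its dorsal factors being low as well. The group means were -0.12 ± 0.011 for wild type and 0.12 ± 0.064 for knockout (SD, n = 3 arrays), and their difference of 0.23 lay between 0.19 and 0.25 with any 1 array left out. This contrast was formed after the values were seen and is given without a test.

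**Figure D3:**
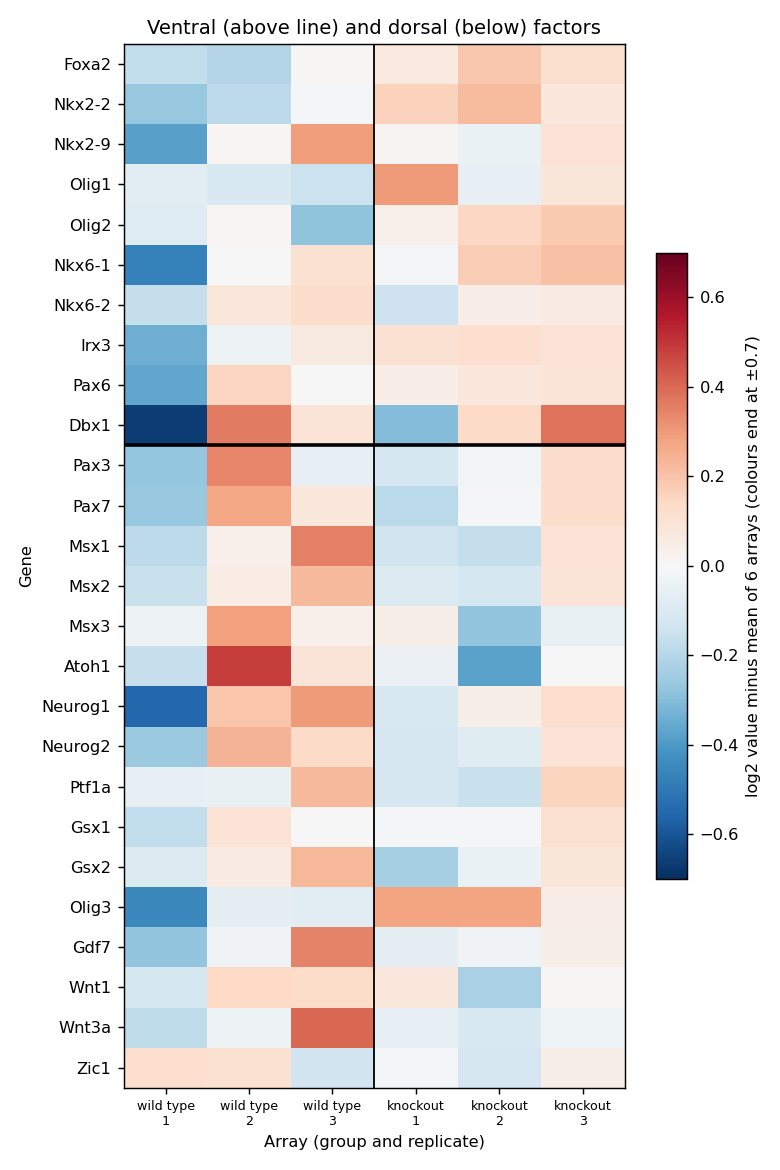
Deviation of each gene's log2 value from its mean over the 6 arrays (columns), for the 10 ventral factors above the black line and 16 dorsal factors below it; red is above and blue below the mean. Wild-type replicate 1 is blue for all 10 ventral factors and for 15 of the 16 dorsal factors, and Olig3 is the dorsal factor with the clearest red in knockout.

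The other genes of the floor plate and ventral progenitors mostly leaned the same way. Of 15 measured, 12 had a higher mean in knockout, 0 had an unadjusted p under 0.05, and the median was 0.11, falling to 0.016 without wild-type replicate 1. Foxa1, the floor-plate relative of Foxa2, read 7.53, 7.99 and 8.39 in wild type and 8.22, 8.35 and 8.57 in knockout, a difference of 0.41 with overlapping groups. Spon1, which encodes the floor-plate matrix protein F-spondin, differed by 0.29, also with overlapping groups. Shh, the ligand itself, read 7.97, 8.21 and 8.45 against 8.29, 8.51 and 8.43, a difference of 0.20 with overlapping groups. Without wild-type replicate 1 these differences were 0.19 for Foxa1, 0.15 for Spon1 and 0.077 for Shh. Only Sp8, a zinc-finger factor singled out here after its values were seen, did not overlap, at 0.12.

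The genes listed for the Hedgehog pathway, which include its ligand, receptors, effectors and modulators as well as its targets, showed no common shift. Of 17 measured genes, 9 had a higher mean in knockout. Their median difference was 0.019, and -0.048 without wild-type replicate 1. Gli1, a transcriptional target and effector of the pathway, differed by 0.098 and Ptch1, the receptor and feedback target, by -0.00691, with overlapping groups in both. Without wild-type replicate 1 Gli1 differed by -0.048, and Ptch1 by 0.086 without knockout replicate 1. The 1 gene of the list with an unadjusted p under 0.05 was Sulf1, an extracellular sulfatase that trims heparan sulfate and takes part in Shh presentation. It read 9.28, 9.34 and 9.87 in wild type and 9.80, 10.16 and 9.99 in knockout, a difference of 0.49 with overlapping groups and an unadjusted p of 0.0192 (adjusted p of 1 in limma). Its relative Sulf2, singled out here after its values were seen, was the 1 gene of the list without overlap, at 0.17.

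Neurons born from these domains were represented by 19 measured genes, of which 18 had a higher mean in knockout, with a median of 0.11. That median was -0.012 and the count 8 of 19 without wild-type replicate 1. Sim1, the factor of V3 interneurons from p3, differed by 0.10. The motor neuron genes Mnx1 and Chat differed by 0.12 and 0.064, En1 of V1 interneurons by 0.032 and Evx1 of V0 interneurons by 0.094, all with overlapping groups. Without wild-type replicate 1 the values of Mnx1, Chat, En1 and Evx1 were below 0, between -0.081 and -0.012, and without wild-type replicate 2 that of Sim1 was 0.011. Gata3, a factor of the V2b interneurons that arise from p2, was the 1 gene with an unadjusted p under 0.05. It read 8.27, 8.62 and 8.63 in wild type and 8.64, 9.04 and 8.81 in knockout, a difference of 0.32 without overlap and with an unadjusted p of 0.0430 (adjusted p of 1 in limma), and of 0.20 without wild-type replicate 1.

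For glia of ventral origin, 12 of 14 measured genes were higher, with a median of 0.12 that lay between 0.094 and 0.14 with any 1 array left out. Nkx2-2, Olig2 and Olig1 belong to this list too, so its count and median partly repeat the results given above. These factors were its 3 genes without overlap. Sox10, which marks the committed oligodendrocyte lineage, read 8.19, 8.27 and 8.17 in wild type and 8.28, 8.24 and 8.25 in knockout, a difference of 0.050. Pdgfra, the growth factor receptor of oligodendrocyte precursors, differed by 0.14, and by 0.010 without wild-type replicate 3. The groups overlapped for both.

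Markers of other cell types in the sample were read beside the ventral factors. All 10 endothelium and pericyte genes had a higher mean in knockout, with a median of 0.15, and their mean level ran from 8.67 to 8.89 in wild type and from 8.85 to 9.05 in knockout, all 10 being above the background guide and the groups overlapping. Per array the vessel genes were lowest in wild-type replicate 2, at -0.18 from their means, where the 10 ventral factors averaged 0.00842. The factors differed there: Foxa2, Nkx2-2 and Olig1 were at -0.21, -0.18 and -0.11, and the others ran from -0.037 (Irx3) to 0.36 (Dbx1). Knockout replicate 2 was highest for the vessel genes, at 0.20, and for 3 of the 10 factors (Foxa2, Nkx2-2 and Irx3). In knockout replicate 3 the vessel genes were at -0.00689, while the mean of the ventral factors was highest, at 0.14. Most meningeal genes lay the other way, 6 of 8 being lower in knockout. The median of the 8 was -0.14, and it stayed between -0.22 and -0.070 with any 1 array left out. The difference farthest from 0 was that of Dcn, however, which was higher by 0.38. Lum, lower by 0.30, was under the background guide, and both were picked out after their values were seen. The mean level of the 8 genes was 7.54 to 7.64 in wild type and 7.41 to 7.65 in knockout, so the groups overlapped. The median was 0.031 for the 11 ventricular progenitor genes and 0.039 for 10 cycling-cell genes. With 1 array left out, the ventricular median ran from -0.039 (wild-type replicate 1 omitted) to 0.088 (wild-type replicate 3 omitted). The cycling-cell median ran from 0.00112 (knockout replicate 3 omitted) to 0.17 (wild-type replicate 2 omitted). The part of vessels, meninges and progenitor content in the differences of the ventral factors was not tested.

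**Figure D4:**
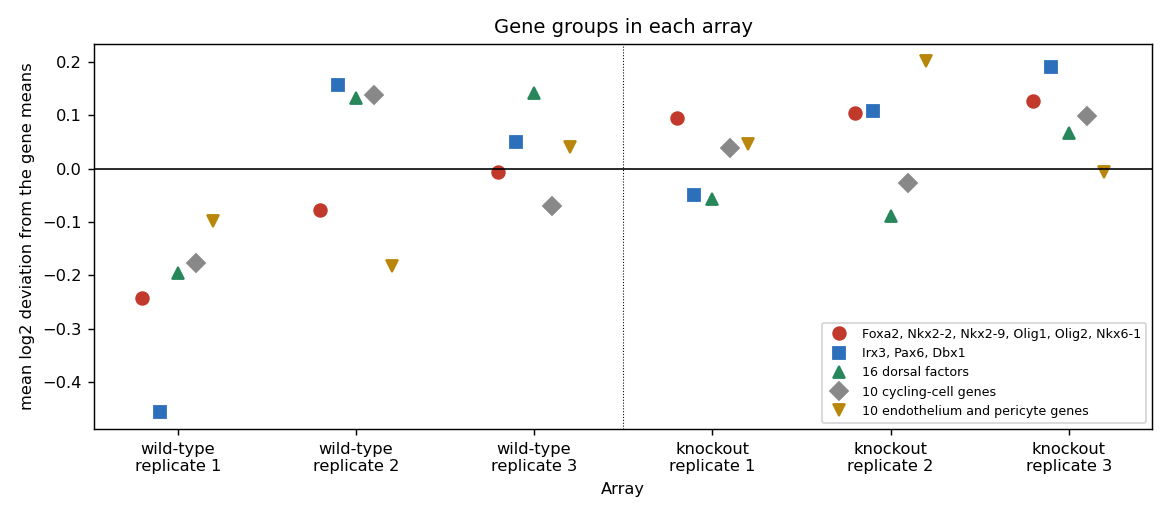
Mean deviation of each gene group from its genes' means over the 6 arrays, in log2 units, per array. The 6 factors turned on by Hedgehog signalling (red circles) have every knockout point above every wild-type point, while Irx3, Pax6 and Dbx1 (blue squares), the 16 dorsal factors, the cycling-cell genes and the vessel genes overlap between the groups.

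Position in the genome was shared by some of the factors. Foxa2, Nkx2-2 and Pax6 lie on chromosome 2, Nkx6-2 and Dbx1 on chromosome 7, and Olig2 and Olig1 are next to each other on chromosome 16. None lies on chromosome 4 with Tnc. The tested genes in the nearest 2 places on either side of each factor, 35 in all, had a median difference of -0.012, and 15 of them were higher in knockout. Nkx2-4, beside Nkx2-2, differed by 0.010, and Ifnar2, beside Olig1, by 0.048. Among these neighbours Crnde near Irx3 was the 1 gene higher by 0.2 or more, at 0.34 with overlapping groups, and Cds1 near Nkx6-1 the 1 gene without overlap, at 0.15; both were picked out after their values were seen.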

How the data were processed

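Total RNA of 6 samples was hybridised to Affymetrix Mouse Gene 1.0 ST arrays, 1 per sample. What the authors deposited are log2 values from RMA, as named without a version in the submitters' processing notes. That method subtracts background, gives the probe signals of all arrays 1 distribution and combines the probes of a transcript. Small differences shrink by this, and shifts shared by a whole array are largely lost. The medians over the deposited rows were still unequal, from 6.96 in knockout replicate 1 to 7.10 in wild-type replicate 3. With the arrays centred on their medians, the median difference of the 10 factors was 0.25. Of 35557 rows, 21789 had 1 gene symbol in the platform annotation, 1621 had several and were not used for naming, and 12147 were unlisted. Symbols were updated through entrez identifiers to RefSeq of GRCm38.p6 (19856 of 19938 genes matched), and the row of highest mean stood for a gene. The genome build behind the arrays is not given in the sources used here.

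Knockout was compared with wild type in limma 3.58.1 (R 4.3.3), by lmFit and eBayes with group as the only term, two-sided, with Benjamini-Hochberg adjustment over all genes. The procedure was checked on simulated data. Named genes are the members, Tnc, genes of 5 lists with unadjusted p under 0.05 (or the 2 of smallest p), and domain markers fixed by name. Outside these rules, Neurog1 and Gsx1 were named to complete a count, and Nkx2-4 and Ifnar2 as neighbours of members. Other genes added after their values were seen are marked. The members and lists were chosen with earlier results of these data known. Alternatives covered single arrays, replicate block, sex, normalization, array weights, dim genes, prior variance and row choice. The labels state no pairing of arrays, and the reported fit took none. Same-numbered arrays correlated at 0.35, -0.075 and 0.45 in their deviations from group means, which did not settle whether the numbers mark pairs. Figures were drawn with matplotlib 3.10.9.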

Additional observations from a re-analysis of the deposited data

How the results depend on the processing

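No member passed an adjusted p of 0.05 under any alternative in which it was tested. Over all genes 0 passed in the reported fit, 0 at an adjusted p of 0.1, and 0 to 4 with 1 array left out. The 4, without knockout replicate 2, were Xist and 3 Y-linked genes. With all rows of the table tested, 9 passed, none a member and none with a single symbol. Foxa2, Nkx2-2, Olig1, Olig2, Nkx6-1 and Irx3 stayed higher in knockout in every alternative run, Foxa2 not being tested without genes under the median level. The profile ran from -0.053 to 0.17 with 1 array left out, was 0.22 with array weights, 0.017 with Nkx6-2 added and 0.046 without Foxa2, and could not be formed without genes under the median level, which drops Foxa2 and Nkx2-9.

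Signs turned for 4 factors. Left out 1 at a time, arrays gave -0.13 to 0.21 for Nkx2-9, -0.12 to 0.038 for Nkx6-2, -0.00619 to 0.25 for Pax6 and -0.15 to 0.36 for Dbx1. A sex term gave -0.021 for Nkx2-9 and 0.034 for Nkx6-2. Array weights gave -0.00507 for Nkx2-9, -0.045 for Pax6 and -0.20 for Dbx1, and centring arrays on their medians gave 0.00376 for Nkx6-2. The cause was not tested. The array weights, whose estimation stopped before it converged, rest mainly on wild-type replicate 2 (weight 6.40). They also left 6 of 10 factors higher, and gave an adjusted limma p of 0.0726 for both Foxa2 and Nkx2-2, against 1 after rounding in the reported fit. A replicate block, which cannot move the differences of a balanced design, left 0 genes past the adjusted threshold. Under the block 5 of the 10 factors had an unadjusted limma p under 0.05 (Olig1 and Nkx6-1 besides Foxa2, Nkx2-2 and Olig2), against 3 without it, and 3.19% of all genes did, against 1.7%. Of the wild-type arrays, 2 of 3 correlated best with the knockout array of their own number, so whether the numbers mark pairs was not settled.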
